A study of Argopecten irradians concentricus with 9 samples.

Results

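The gene models described here are the collagens, laminins and integrins of bay scallop adductor muscle, together with the proteins that build, cross-link or bind them. They were chosen by protein name. A gene model belonged to the set when the name of its best Swiss-Prot match began with collagen alpha, laminin subunit, integrin alpha, integrin beta, integrin-linked, tenascin, lysyl oxidase, SPARC, basement membrane or prolyl 4-hydroxylase. This rule found 87 of the 28864 gene models in the deposited table. Each name thus rests on sequence similarity to a protein from a different animal, and the table's own Pfam domains (protein families recognised by sequence profile) were used to check it.

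The libraries were made from adductor muscle, which closes the shell, of Argopecten irradians concentricus that were 1 year old. There were 3 libraries from high water temperature, 3 from low and 3 from room temperature, which served as the control. The labels give neither degrees nor exposure time. They mention RNA isolation for each tank, and leave unsaid whether replicates were separate animals. The p-values below measure only the spread between these libraries, which may be technical.

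Collagens are chains that wind into a triple helix, and prolyl 4-hydroxylase hydroxylates their prolines so that the helix is stable. Lysyl oxidases cross-link the secreted fibres. Laminin trimers, type IV collagen and the heparan sulfate proteoglycan perlecan form the basement membrane around each muscle fibre. Integrins are alpha-beta receptors that tie this matrix to the actin cytoskeleton, with integrin-linked kinase bound to the beta tail. In muscle this chain of proteins carries force from the fibre to the connective tissue.

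The members' reads were few beside those of contractile genes. Between 11716140 and 16229040 reads were assigned per library, and the 87 gene models took from 0.315% (low temperature replicate 3) to 0.889% (low temperature replicate 1) of them. The labelled tissue was borne out by its markers: gene models named for myosin, actin, paramyosin, tropomyosin, troponin and twitchin summed to 64900 to 172200 FPKM at high, 62920 to 111500 at low and 82340 to 103600 at room temperature. FPKM here is reads per kilobase of gene model, so levels can be compared between genes. Each library was divided by a number that the authors' scaling set, which was not its assigned reads. High temperature replicate 3 had 13932572 assigned reads and a divisor of 9062875, which raises its FPKM. For high temperature replicate 1 these were 14121401 and 19836069, which lowers them. High temperature replicate 3, the top of that range, and low temperature replicate 3 lay far from the other libraries on the leading principal components of all tested genes. Summed markers of ciliated epithelium were at 57.7 to 66.9 FPKM at high, 58.1 to 72.4 at low and 71 to 76.1 at room temperature. Those of the digestive gland were at 19.1 to 35.4, 14.4 to 19.6 and 10.5 to 18.9 FPKM. Both sets of sums separate high from room temperature. Summed markers of shell and mantle were at 7.72 to 10.8 FPKM at high, 3.68 to 6.33 at low and 7.5 to 18.2 at room temperature, so all low temperature libraries lay below the others. The part of these 3 marker sets in the results below was not tested. In a tissue sample, fewer cells of a type and less RNA per cell cannot be told apart.

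Of the 87 members, 35 had a mean of at least 1 FPKM over the 9 libraries and were tested, a share of 40.2% against 40.4% of all gene models with a protein name. A further 38 had reads but a mean under 1 FPKM. The remaining 14 had 0 of the 126292378 reads in all, which allows at most 0.0099 to 0.078 FPKM depending on gene length, with counting error as the only error considered. Tested members had from 319 to 165053 reads over the 9 libraries, with a median of 5002.

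The domain annotation divided the collagen names. Of 46 gene models with a collagen name, 6 carried the collagen triple helix repeat, and all 6 were tested. Another 36 carried a von Willebrand factor type A domain (an adhesion fold of vertebrate type VI, XII and XIV collagens) and no triple helix repeat, and 12 of these were tested. The 3 with a match to type X collagen carried a C1q domain (the globular head found in complement C1q and in type X collagen), and none reached the filter. The remaining 1, on Contig730 from 168164 to 178499 (plus strand), had no domain listed. Names and domains likewise parted elsewhere: of 8 tenascin matches, 7 carried a fibrinogen-like domain, 0 carried the fibronectin type III repeat and 0 were tested. Of 3 lysyl oxidase matches, 1 carried the catalytic lysyl oxidase domain, and it was the 1 that was tested. All 3 carried scavenger receptor repeats. In the whole table, the triple helix repeat was found in 32 gene models. Of these, 26 lay outside the set because they had another name or none. The most abundant of the 26 was evm.TU.Contig117.103, an unnamed model that also carried a C1q domain. Its mean of 260.2 FPKM was above that of every model with a collagen name.

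SPARC and the type III collagens stood at the top of the set. The match to SPARC, a secreted calcium-binding protein that binds collagen, had the highest mean of the 87, at 305.9 FPKM, and ranked 224 among all gene models. It was at 302.1, 271.9 and 444 FPKM at high temperature, 236.3, 168.8 and 335.9 at low, and 221.7, 238.3 and 534.5 at room temperature. All 3 groups overlapped, and room temperature replicate 3 was the highest library. Next came 2 matches to type III collagen, evm.TU.Contig364.67 and evm.TU.Contig364.70, at means of 234.7 and 195.6 FPKM, and the type XI match, at 55.5 FPKM, stood below 2 von Willebrand A collagens at 75.5 and 62.2 FPKM. The 3 fibrillar collagen models, the only ones in the table with the fibrillar C-terminal domain that joins chains into trimers, held 55.8% of all member reads. The 37 gene models named for collagens with von Willebrand A domains held 20.9%.

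**Figure D1:**
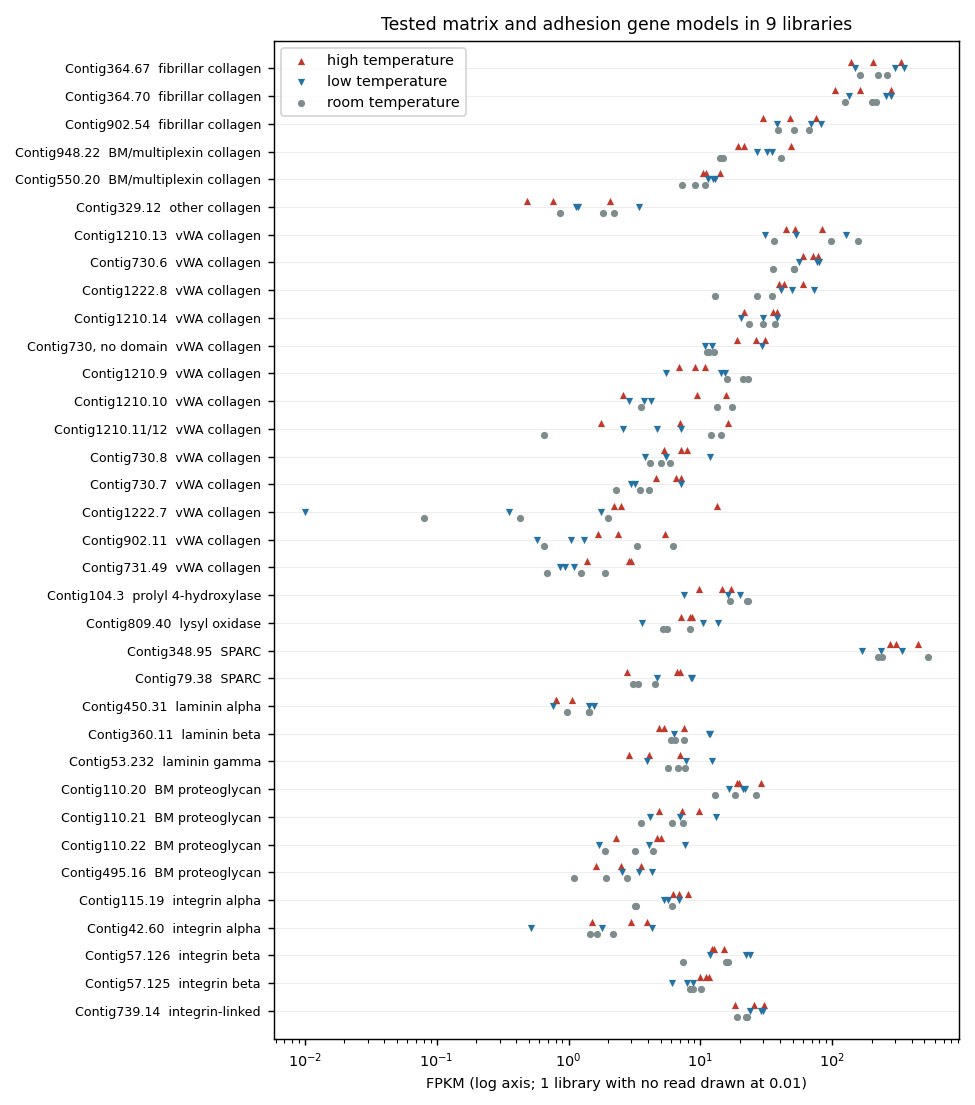
FPKM of the 35 tested gene models (rows, grouped by class) in each library on a log axis, with high temperature as red triangles above, low temperature as blue inverted triangles in the middle and room temperature as grey circles below. vWA stands for von Willebrand A and BM for basement membrane; the 3 groups overlap in most rows, and levels run from under 1 to over 500 FPKM.

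The 3 fibrillar collagens varied between libraries and kept their proportions. The type III match evm.TU.Contig364.67 lies on Contig364 from 1759763 to 1790209 on the plus strand, and the other, evm.TU.Contig364.70, from 1808246 to 1838150 on the minus strand. Both have the triple helix and the fibrillar C-terminal domain. evm.TU.Contig364.67 was at 203.6, 137.6 and 330.3 FPKM at high, 347.9, 297.8 and 148.5 at low and 163.2, 222.3 and 261.3 at room temperature. evm.TU.Contig364.70 was at 162.4, 104.3 and 278.8 FPKM at high, 281.1, 257.3 and 134.6 at low and 125.8, 201 and 214.9 at room temperature. The type XI match, evm.TU.Contig902.54, was at 47.9, 29.7 and 75.6, at 82.7, 69.2 and 38.4, and at 38.8, 51.4 and 66.1 FPKM in the same order. In each, low temperature replicate 1 was the highest library and high temperature replicate 2 the lowest. Within a library, the ratio of the 2 type III matches ran from 1.1 to 1.32, and that of evm.TU.Contig364.67 to type XI from 3.87 to 4.63, a 1.2-fold range for each ratio where the levels themselves spanned 2.53-fold to 2.78-fold. The group means of evm.TU.Contig364.67 were 223.8 ± 97.9 FPKM at high, 264.7 ± 103.7 at low and 215.6 ± 49.4 at room temperature (SD, n = 3 each), and no comparison passed (the lowest limma adjusted p of the 3 genes in any comparison was 0.812). How alike the 2 type III matches are in sequence was not tested. If they are alike, their reads may not be separable, and the handling of reads that map to several places is not given in the sources.

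The basement membrane collagens were lower than the fibrillar ones. Type IV collagen, the network former of the basement membrane, was matched by evm.TU.Contig948.22, the only model in the table with the type IV C-terminal domain. It was at 21.3, 19.2 and 48.3 FPKM at high, 35.1, 27 and 31.8 at low and 14.9, 14.1 and 41 at room temperature. The room temperature libraries thus held both the lowest values and the next to highest. The match to type XVIII collagen, which carries the endostatin domain, was evm.TU.Contig550.20. It was at 14, 11 and 10.4 FPKM at high, 11.5, 13 and 12.5 at low and 7.22, 9.17 and 10.8 at room temperature. All low temperature libraries lay above all room temperature libraries, and the difference did not pass (limma adjusted p = 0.691). The type IX match evm.TU.Contig329.12, at a mean of 1.56 FPKM, had the widest spread of the 6 triple helix models, with a coefficient of variation of 59.8% over 9 libraries.

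Prolyl 4-hydroxylase and lysyl oxidase, the enzymes of the set, were each represented by 1 tested model. Of 7 prolyl 4-hydroxylase alpha subunit matches, evm.TU.Contig104.3 on Contig104 (60627 to 90417, plus strand) was tested, and the other 6 had means under 0.15 FPKM. It was at 14.6, 9.71 and 17 FPKM at high, 20, 16.1 and 7.51 at low and 22.9, 22.6 and 16.8 at room temperature. Its mean was lower at both water temperature extremes than at room temperature, at 13.8 ± 3.71 FPKM at high and 14.5 ± 6.4 at low against 20.8 ± 3.44 at room temperature (SD, n = 3 each). Neither difference passed (log2 difference -0.58, SE 0.35, limma adjusted p = 0.637 for high, and -0.57, SE 0.35, adjusted p = 0.722 for low). Without high temperature replicate 2 the first difference was -0.37, and without low temperature replicate 3 the second was -0.19. Both use the same room temperature libraries. The lysyl oxidase match evm.TU.Contig809.40 was at 8.61, 8.39 and 7.09 FPKM at high, 13.6, 10.5 and 3.59 at low and 5.22, 5.54 and 8.31 at room temperature. Low temperature held its highest and its lowest library.

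The match to SPARC-related modular calcium-binding protein 2, a relative of SPARC with thyroglobulin repeats, differed from SPARC in its pattern. This model, evm.TU.Contig79.38, was at 7.01, 6.61 and 2.8 FPKM at high, 8.54, 4.66 and 8.58 at low and 3.08, 4.52 and 3.36 at room temperature. All low temperature libraries lay above the room temperature ones. The log2 difference of low minus room was 0.8 (SE 0.34), with a limma adjusted p of 0.576.

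**Figure D2:**
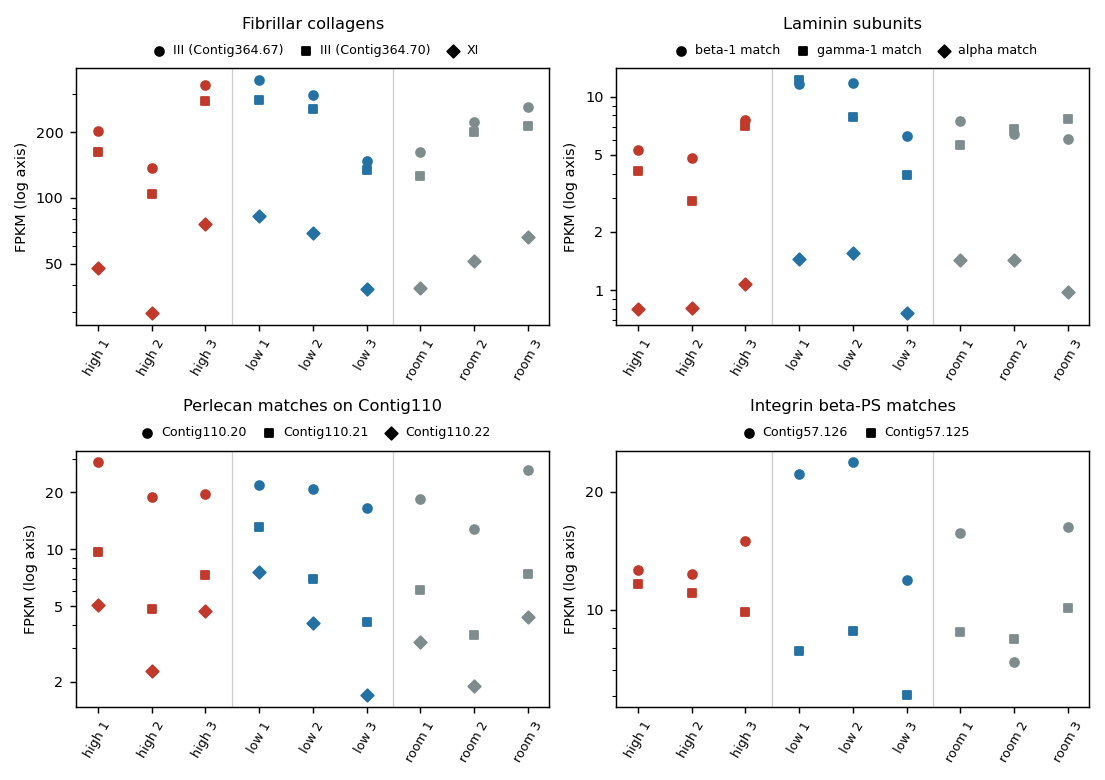
FPKM in each of the 9 libraries (log axis) for the fibrillar collagens, the laminin subunits, the perlecan matches of Contig110 and the integrin beta-PS matches, with high temperature in red, low in blue and room temperature in grey. Symbols mark gene models; the fibrillar collagens keep their spacing from library to library, with ratios of the type III matches between 1.1 and 1.32, while the integrin beta-PS matches do not.

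Laminins form a cross of an alpha, a beta and a gamma chain, and 1 model of each was tested. The beta-1 match evm.TU.Contig360.11 was at 5.3, 4.84 and 7.55 FPKM at high, 11.6, 11.8 and 6.28 at low and 7.52, 6.43 and 6.03 at room temperature. The gamma-1 match evm.TU.Contig53.232 was at 4.11, 2.89 and 7.03, at 12.2, 7.82 and 3.92 and at 5.65, 6.77 and 7.64 FPKM in the same order. Low temperature replicates 1 and 2 were the highest libraries for both chains, and low temperature replicate 3 lay with the rest. For high minus low the log2 differences were -0.63 (SE 0.28, limma adjusted p = 0.414) for beta-1 and -0.61 (SE 0.38, adjusted p = 0.584) for gamma-1. With 1 library left out in turn, the gamma-1 difference ran from -0.99, without low temperature replicate 3, to -0.28, without low temperature replicate 1, and it was -0.37 without high temperature replicate 2. The beta-1 difference ran from -0.9 to -0.49. The alpha match evm.TU.Contig450.31 was the least abundant of the 3, with a mean of 1.14 FPKM, and the gamma-1 to alpha ratio ran from 3.59 to 8.46. Its log2 difference of high minus room was -0.27 (SE 0.24, limma adjusted p = 0.763). A match to laminin alpha-2 had a mean of 0.0706 FPKM and was not tested.

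Perlecan, the large proteoglycan that laminin and type IV collagen bind, was spread over several gene models. Adjacent models on the minus strand of Contig110 matched it: evm.TU.Contig110.22 (376740 to 436809), with the SEA and low-density lipoprotein receptor domains that open vertebrate perlecan, evm.TU.Contig110.21 (343361 to 374537), with laminin and immunoglobulin domains, and evm.TU.Contig110.20 (332862 to 342513), with the laminin G and EGF-like domains that close it. Whether these are parts of 1 gene was not tested. Their mean levels in that order, which is the order of transcription, were 3.88, 7 and 20.4 FPKM. The ratio of evm.TU.Contig110.21 to evm.TU.Contig110.22 stayed between 1.55 and 2.42, whereas that of evm.TU.Contig110.20 to evm.TU.Contig110.22 ran from 2.88 in low temperature replicate 1 to 9.79 in low temperature replicate 3. No comparison of the 3 passed. Another tested model, evm.TU.Contig495.16, matched the basement membrane proteoglycan name and held immunoglobulin domains only. It was at 3.55, 2.51 and 1.61 FPKM at high, 2.54, 3.43 and 4.27 at low and 1.92, 1.11 and 2.79 at room temperature, with a log2 difference of low minus room of 0.61 (SE 0.3, limma adjusted p = 0.628), which was 0.39 without room temperature replicate 2.

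The scallop set held 2 integrin beta chains, neighbours on the plus strand of Contig57 that both matched fly integrin beta-PS. evm.TU.Contig57.126 was at 12.6, 12.3 and 15 FPKM at high, 22.2, 23.8 and 11.9 at low and 15.7, 7.36 and 16.3 at room temperature. evm.TU.Contig57.125 was at 11.6, 11 and 9.88, at 7.86, 8.84 and 6.05 and at 8.75, 8.4 and 10.1 FPKM in the same order. For evm.TU.Contig57.125 every high temperature library lay above every low temperature library, whereas for evm.TU.Contig57.126 low temperature replicates 1 and 2 were the highest of the 9. The ratio of evm.TU.Contig57.126 to evm.TU.Contig57.125 was 1.08, 1.11 and 1.51 at high, 2.82, 2.69 and 1.97 at low and 1.8, 0.876 and 1.62 at room temperature. High and low temperature did not overlap in this ratio, which was picked out after its values were seen and has no test. On the log2 scale, high minus low was 0.48 (SE 0.23, limma adjusted p = 0.452) for evm.TU.Contig57.125 and -0.46 (SE 0.35, adjusted p = 0.684) for evm.TU.Contig57.126. The second value was -0.28 without low temperature replicate 2 and -0.75 without low temperature replicate 3.

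Of 7 integrin alpha matches, 5 carried the integrin alpha domain and 2 passed the filter. The alpha-9 match evm.TU.Contig115.19 was at 6.87, 8.03 and 6.24 FPKM at high, 5.7, 5.29 and 6.9 at low and 3.2, 3.26 and 6.05 at room temperature. In deposited FPKM, each high temperature library lay above each room temperature library, and the log2 difference was 0.68 (SE 0.26, limma adjusted p = 0.453). Per assigned read these groups overlapped. High temperature replicate 3 had 377 of 13932572 reads and room temperature replicate 3 had 579 of 16229040. Room temperature replicate 3 lay near the other groups. The match to fly integrin alpha-PS2, evm.TU.Contig42.60, was at 3.96, 2.97 and 1.51 FPKM at high, 4.29, 1.79 and 0.519 at low and 1.46, 1.65 and 2.17 at room temperature, and all groups overlapped. The 2 alpha-M matches lacked the integrin alpha domain and were not tested. Integrin-linked kinase, evm.TU.Contig739.14, had the smallest coefficient of variation of the 35 tested members, 18.2%. It was at 30.2, 25.6 and 18.2 FPKM at high, 29.8, 23.8 and 28.6 at low and 22.2, 22.5 and 19.1 at room temperature. Low and room temperature did not overlap, with 27.4 ± 3.19 against 21.2 ± 1.89 FPKM (SD, n = 3 each, limma adjusted p = 0.78).

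The von Willebrand A collagens were the largest class, with 37 gene models, of which 13 were tested. They were placed here by name, and 0 of the 37 had the triple helix repeat listed. The von Willebrand A domain was also found in 42 gene models outside the set. Whether the 37 are collagens was not tested. Of the 37, 23 lay directly beside another member. Over the whole set, 31 of the 87 members sat directly beside another member in 13 runs of 2 to 5 gene models. The longest run was on Contig1210, where 5 matches to types VI and XII lay between 107250 and 209967. On Contig730, evm.TU.Contig730.6, the model without a domain, evm.TU.Contig730.7 and evm.TU.Contig730.8 lay between 119605 and 295786. On Contig1222, evm.TU.Contig1222.7 and evm.TU.Contig1222.8 were adjacent, and evm.TU.Contig1222.10 and evm.TU.Contig1222.11 followed with means of 0.508 and 0.896 FPKM. Neighbours differed widely in level: evm.TU.Contig1210.13 had a mean of 75.5 FPKM and evm.TU.Contig1210.10 of 8.11 FPKM, and evm.TU.Contig1222.8 of 42.3 FPKM beside 2.52 FPKM for evm.TU.Contig1222.7.

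**Figure D3:**
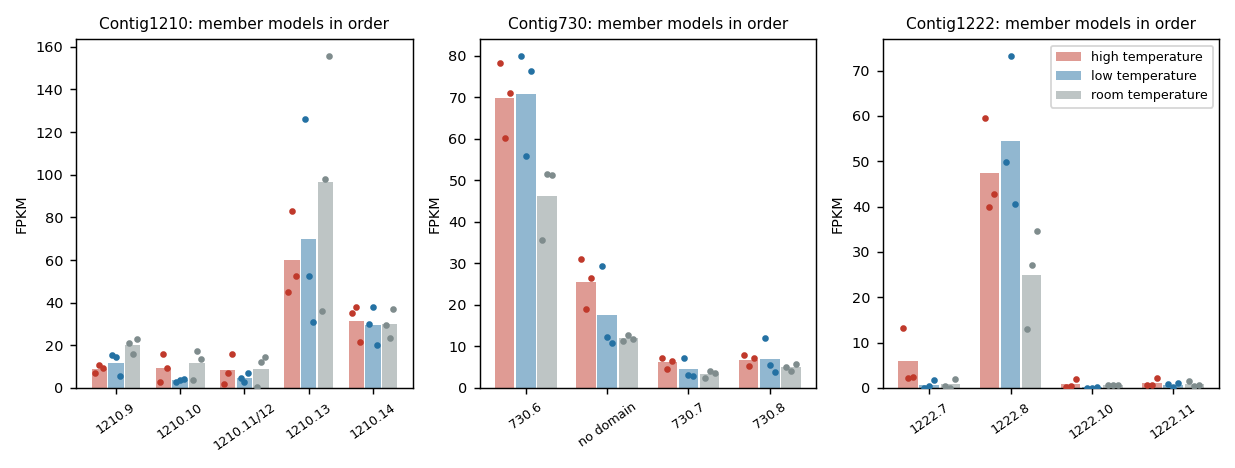
FPKM of the collagen-named gene models of Contig1210, Contig730 and Contig1222 in their order along each contig; bars start at 0 and give the mean of 3 libraries at high (red), low (blue) and room temperature (grey), and points are libraries. The highest mean on each contig was that of evm.TU.Contig1210.13 at 75.5, evm.TU.Contig730.6 at 62.2 and evm.TU.Contig1222.8 at 42.3 FPKM.

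Most of the members whose high and room temperature libraries did not overlap were of this class. evm.TU.Contig1222.8, a type VI alpha-3 match, was at 59.6, 39.8 and 42.7 FPKM at high, 49.8, 73.2 and 40.6 at low and 13, 27.1 and 34.7 at room temperature. All 6 libraries of the high and low groups lay above the 3 at room temperature. The log2 differences were 0.98 for high minus room (SE 0.37, limma adjusted p = 0.444) and 1.16 for low minus room (SE 0.37, adjusted p = 0.4). evm.TU.Contig730.6, a type VI alpha-4 match with an EGF-like domain, was at 78.3, 60.1 and 71 FPKM at high, 79.9, 55.9 and 76.2 at low and 35.5, 51.5 and 51.3 at room temperature. It was likewise higher in all 6 libraries, by 0.6 (SE 0.27, adjusted p = 0.52) at high and 0.61 (SE 0.27, adjusted p = 0.595) at low temperature. A model on Contig1210 lay in the other direction. evm.TU.Contig1210.9, a type VI alpha-5 match, was at 6.9, 10.8 and 9.13 FPKM at high, 15.5, 14.3 and 5.49 at low and 21.2, 16 and 23.1 at room temperature. All 6 libraries lay below the room temperature ones, by -1.09 (SE 0.36, limma adjusted p = 0.385) at high and -0.82 (SE 0.36, adjusted p = 0.59) at low temperature. Without low temperature replicate 3 the low temperature value was -0.39. For evm.TU.Contig1222.8, leaving out room temperature replicate 1 gave 0.59 at high and 0.77 at low temperature. The high and low comparisons of these 3 models rest on the same room temperature libraries. These separations held in deposited FPKM, and per assigned read each was incomplete. Of evm.TU.Contig1222.8, high temperature replicate 3 had 1005 of 13932572 reads and room temperature replicate 3 had 1293 of 16229040. For evm.TU.Contig730.6, high temperature replicate 3 had 3107, and room temperature replicate 2 had 3684 of 14438989. For evm.TU.Contig1210.9, low temperature replicate 1 had 877 of 13435732 and room temperature replicate 2 had 720.

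For further members of the class, the high temperature libraries lay apart from 1 of the other groups and overlapped the other. The Contig730 model with no listed domain, a type VI alpha-4 match, was at 31, 18.9 and 26.5 FPKM at high, 29.3, 12.3 and 10.9 at low and 11.3, 12.7 and 11.7 at room temperature. The high libraries lay above the room temperature ones (log2 difference 1.01, SE 0.35, limma adjusted p = 0.417), and low temperature replicate 1 was as high as they were. This model overlaps an unannotated model on the same strand, so their reads may not be separable. evm.TU.Contig730.7, a type VI alpha-3 match of 17305 bases, was at 7.19, 4.62 and 6.56 FPKM at high, 7.14, 3.19 and 2.97 at low and 2.28, 4.09 and 3.49 at room temperature, a log2 difference of high minus room of 0.74 (SE 0.32, limma adjusted p = 0.509). evm.TU.Contig731.49, another alpha-3 match, was at 2.88, 1.37 and 3 FPKM at high, 1.11, 0.943 and 0.863 at low and 1.24, 0.683 and 1.9 at room temperature, with 0.75 for high minus low (SE 0.29, limma adjusted p = 0.33).

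Some members varied widely between the libraries of a group. evm.TU.Contig1222.7, a type XIV match, rested on 222 reads in high temperature replicate 1, 27 and 19 in the other high temperature libraries, 0, 4 and 16 at low and 6, 1 and 24 at room temperature. It had the largest fitted differences of the set, 1.71 for high minus room (SE 0.6, limma adjusted p = 0.417) and 1.81 for high minus low (SE 0.6, adjusted p = 0.276). Without high temperature replicate 1 they were 1.01 and 1.12. In FPKM, all its high temperature libraries lay above those of both other groups. evm.TU.Contig1210.10 lay between 2.59 and 4.2 FPKM in 5 libraries and between 9.38 and 17.5 in the other 4, which were high temperature replicates 2 and 3 and room temperature replicates 2 and 3. Its log2 difference of low minus room was -1.22 (SE 0.59, limma adjusted p = 0.624), and -1.84 without room temperature replicate 1. The joined model evm.TU.Contig1210.11_evm.TU.Contig1210.12 spanned 0.652 to 16.1 FPKM, a 24.6-fold range. The type XII match evm.TU.Contig902.11 was at 5.43, 2.36 and 1.68 FPKM at high, 0.58, 1.05 and 1.31 at low and 6.25, 3.28 and 0.651 at room temperature, and its log2 difference was 0.98 for high minus low (SE 0.5, limma adjusted p = 0.482) and -0.92 for low minus room (SE 0.5, adjusted p = 0.669). The first was 0.62 without high temperature replicate 1, and the second -0.44 without room temperature replicate 1 and -1.51 without room temperature replicate 3. All high temperature libraries of evm.TU.Contig902.11 lay above its low temperature ones. The abundant evm.TU.Contig1210.13 ran from 30.7 FPKM in low temperature replicate 3 to 155.7 in room temperature replicate 3, while its neighbour evm.TU.Contig1210.14 stayed between 20.3 and 38 FPKM. The coefficient of variation over 9 libraries had a median of 46% in the class, 39.4% over the 35 tested members and 36.9% over all 8624 gene models tested.

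**Figure D4:**
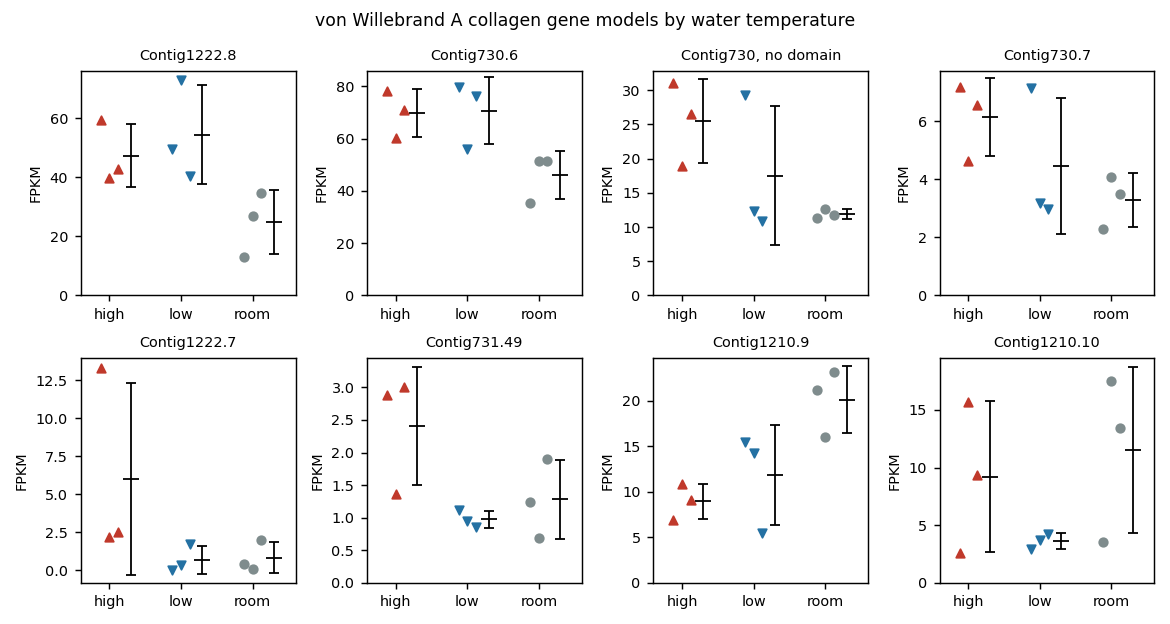
FPKM of 8 von Willebrand A collagen gene models in each library at high, low and room temperature (left to right in each panel), with bars for the mean and SD of 3 libraries. evm.TU.Contig1222.8 and evm.TU.Contig730.6 are lowest at room temperature and evm.TU.Contig1210.9 highest, and evm.TU.Contig1222.7 has 1 high temperature library far above the rest.

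Across the set, no member passed the test in any comparison. By limma over all 8624 gene models tested, with a Benjamini-Hochberg adjusted p under 0.05, 0 of 35 members were called in high minus room, where 0% of all gene models were called. Also 0 of 35 were called in low minus room (background 0.151%) and 0 of 35 in high minus low (background 0.162%). The lowest adjusted p of a member was 0.385 in high minus room, 0.4 in low minus room and 0.276 in high minus low. Half-widths of the 95% confidence intervals of members ran from 0.5 to 1.84 on the log2 scale, with 3 libraries a group. These intervals are not adjusted for the number of gene models tested, so differences beyond them also went uncalled. For evm.TU.Contig1222.7 in high minus low the difference was 1.81, with an interval of 0.49 to 3.14.

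At an unadjusted p under 0.05 in limma, 6 of 35 members were higher at high than at room temperature (17.1%, background 4.7%) and 1 was lower (2.86%, background 4.87%). These 6 were evm.TU.Contig730.6, evm.TU.Contig1222.8, the Contig730 model without a domain, evm.TU.Contig730.7, evm.TU.Contig1222.7 and the alpha-9 integrin match, and the 1 was evm.TU.Contig1210.9. The same 6 and the same 1 were the members whose high and room temperature libraries did not overlap (backgrounds 7.54% and 8.97%). Overlap was judged in deposited FPKM throughout, and some of these separations were lost per assigned read. The count of 6 depended on single libraries. It was 0 without high temperature replicate 1, 2 without room temperature replicate 1 and 3 without room temperature replicate 2. It was 2 when the authors' scaling between libraries was replaced by the total of assigned reads. In low minus room, 3 members were higher (8.57%, background 3.35%) and 1 lower (2.86%, background 4.81%). The libraries did not overlap for 5 members higher at low temperature (14.3%, background 6.53%) and 1 lower (2.86%, background 8.74%). The count of 3 higher was 1 without low temperature replicate 1 and 0 without room temperature replicate 1. In high minus low, 2 were higher (5.71%, background 6.42%) and 1 lower (2.86%, background 5.45%), shares near the background. With each library left out in turn these counts ran from 1 to 5 higher, the highest without low temperature replicate 1, and from 0 to 3 lower, the highest without low temperature replicate 3. There the libraries did not overlap for 4 members, all higher at high temperature (11.4%, background 8.75%), and for 0 in the other direction (background 8.45%). Members that passed the filter are not all members, and these counts are descriptions without a test.

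The median log2 difference of the 35 tested members was 0.23 in high minus room, 0.24 in low minus room and -0.02 in high minus low, beside -0.03, -0.04 and 0.01 over all gene models tested. Above 0 were 24 of 35 members in high minus room (background 46.8%), 23 in low minus room (46%) and 14 in high minus low (50.9%). The first 2 comparisons share their room temperature libraries. By class, the von Willebrand A collagens had a median of 0.37 in high minus room and -0.1 in low minus room, and the 6 triple helix models of -0.04 and 0.26. In high minus low the triple helix models were below 0 in 6 of 6 cases, with a median of -0.29, the 3 laminins in 3 of 3, with a median of -0.61, and the von Willebrand A collagens in 4 of 13, with a median of 0.4. These direction counts do not measure replication, since the fibrillar models vary together from library to library. The median of low minus room rested on single libraries: it was -0.04 once low temperature replicate 1 was left out, 0.47 with replicate 3 of that group left out and 0.05 with room temperature replicate 1 left out. That of high minus room was 0.12 when high temperature replicate 1 was left out, 0.08 for room temperature replicate 2 and 0.46 for room temperature replicate 3.

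Single libraries held many of the extremes. Of the 35 tested members, 11 had their highest value in low temperature replicate 1 (31.4%, where 10.3% of all gene models tested had theirs) and 7 in high temperature replicate 1 (20%, against 6.1%). In low temperature replicate 3 lay the lowest value of 11 members, where 14% of all gene models had theirs. Room temperature replicate 3 held the lowest value of 0 members (7.77% of all gene models). Room temperature replicates 1 and 2 held that of 6 members each (7.11% and 11.3% of all gene models). Summed over the 87 members, levels ran from 991 to 1593 FPKM at high, from 1026 to 1544 at low and from 871 to 1629 at room temperature, so the groups overlapped.

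**Figure D5:**
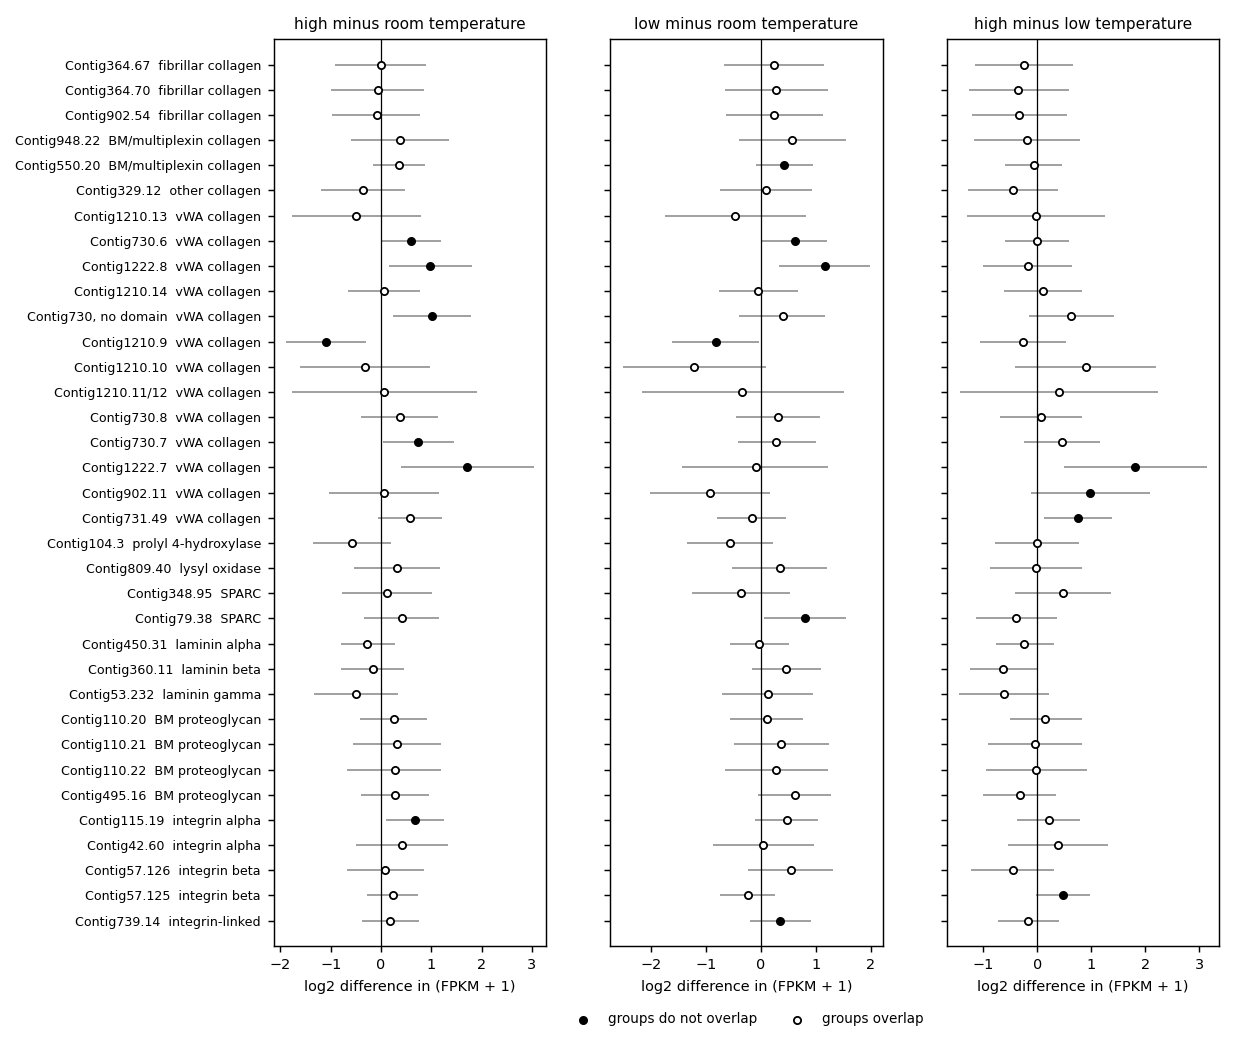
Log2 difference in (FPKM + 1), with 95% confidence intervals from limma, of the 35 tested gene models in the 3 comparisons, the group named before "minus" on top of the difference; filled points mark members whose libraries do not overlap between the groups. The intervals run to 1.84 to either side, and no member has an adjusted p under 0.05.

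Partners of the set were described from lists of protein names. The adhesion site list also takes integrin-linked names, so it counts some members of the set. Of 31 gene models for collagen synthesis (lysyl and prolyl 3-hydroxylases, disulfide isomerases, tolloids, cyclophilin B and the like) 22 were tested, of 110 matrix partners 20 and of 66 adhesion site genes 27. None of these lists had a member called in any comparison. Of all gene models tested, 0% were called in high minus room, 0.151% in low minus room and 0.162% in high minus low. The lowest adjusted p values were in high minus low, 0.142 for collagen synthesis, 0.287 for matrix partners and 0.251 for adhesion sites. The match to tolloid-like protein 2, a protease of the family that trims procollagen, was at 2.17, 1.91 and 2.5 FPKM at high, 7.05, 5.3 and 6.16 at low and 4.21, 1.77 and 2.33 at room temperature. High and low did not overlap (log2 difference -1.16, SE 0.27, limma adjusted p = 0.142). Protein disulfide-isomerase A4, a folding enzyme of the endoplasmic reticulum, was at 3.32, 6.2 and 6.57 FPKM at high, 2.13, 1.27 and 1.73 at low and 2.06, 2.96 and 1.86 at room temperature (high minus low 1.2, SE 0.28, limma adjusted p = 0.142). Fermitin family homolog 2, which activates integrins at the beta tail, was at 14.9, 20.1 and 20.5 FPKM at high, 11.1, 10.8 and 13.1 at low and 15.8, 18.2 and 25.2 at room temperature. Its low temperature libraries lay below all others, and the log2 difference of low minus room was -0.69 (SE 0.26, limma adjusted p = 0.498).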

How the data were processed

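Total RNA of adductor muscle was sequenced in 9 libraries, 3 per water temperature. HISAT2 2.0.4 and HTSeq 0.9.1 are named in the submitters' processing notes; what build, options and strandedness they used is not stated there. The authors deposited FPKM per gene model, per the file headers and title. Multiplied by gene length, these values were whole multiples of a fixed step (within 3.66e-08 read), so read numbers could be recovered. Each library's divisor came to 13972285 reads multiplied by its median-of-ratios factor, which means that libraries were scaled to each other before deposit.

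From these, log2(FPKM + 1) of the 8624 gene models with a mean of at least 1 FPKM was fitted with limma 3.58.1 in R 4.3.3, with 1 mean per group over all 9 libraries and eBayes with a trend; p-values were Benjamini-Hochberg adjusted over all of them. A log2 difference on this scale understates that of low genes. The fit was tested on simulated data. Values are printed per library; sums, ratios and counts carry no test.

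The members, lists and rules were chosen with earlier results of these data known. Named members were the 2 most abundant tested ones of each class, the 4 of lowest p per comparison and direction, and all tested members of the small classes; other models, such as evm.TU.Contig730.7 and evm.TU.Contig1210.14, are named outside this rule, after their values were seen. Partner genes named are among the lowest p of each list. Markers of nerve summed to 40.4 to 43.1 FPKM at high, 35.7 to 54.4 at low and 36 to 41.6 at room temperature and those of gonad to 1.43 to 2.85, 1.6 to 2.97 and 0.753 to 1.66. Alternatives were other pseudocounts, filters, scalings, weights and samples, voom on the recovered reads, a replicate block and leaving out libraries. Figures were drawn with matplotlib 3.10.9.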

Additional observations from a re-analysis of the deposited data

How the results depend on the processing

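In 20 alternative settings, 0 members were called in high minus room, low minus room and high minus low alike. The lowest adjusted p of a member ran from 0.134 to 0.965, from 0.122 to 1 and from 0.0597 to 0.718 in these comparisons, the lowest of each with array weights. The 28 log2 differences of members with the lowest p or with groups that did not overlap each kept its direction in every setting that gave a value. Models under a mean of 5 FPKM have no value under that filter. With each library left out in turn, the median difference of the tested members ran from 0.08 to 0.46 in high minus room, from -0.04 to 0.47 in low minus room and from -0.19 to 0.18 in high minus low; the low end of low minus room came without low temperature replicate 1. With the replicate block the medians were 0.23, 0.24 and -0.02 and 0 members were called. Libraries of one number correlated in their deviations from the group means at -0.103 to 0.242, and libraries of unlike numbers at -0.224 to 0.12. These values do not settle whether the numbers pair the libraries. The main fit had no block because the labels do not say that they do. The block gave 4 members higher in high minus room and 1 in low minus room at an unadjusted p under 0.05. With no filter, all 87 members had medians of 0.02, 0 and 0. Counts at an unadjusted p under 0.05 moved most: under other scalings and voom the 6 members higher in high minus room became 2, and the 3 in low minus room 1, with the quantile scaling as the exception. The cause was not tested. The 52 members under the filter were not tested.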
